A study of Homo sapiens with 6 samples.

Results

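The genes described here are the integrin subunits, the discoidin domain collagen receptors and the focal adhesion linkers of ARPE-19, an established human retinal pigment epithelial (RPE) cell line. They were chosen by name, with earlier results of these data known. Of 38 named genes, 37 were listed among the 33496 genes of each deposited table. The expression of ITGA8 was not analysed here, and this gene entered only the search of promoter windows. The 37 comprised 24 integrin subunits, DDR1 and DDR2, and 11 cytoplasmic linkers, kinases and adaptors. RNA-seq was done on 6 libraries, all labelled wild type and all from cells given erastin (5 μM, 24 h), an inhibitor of cystine uptake that drives cells into ferroptosis. The 3 Era libraries had erastin only, and the 3 Era+VK libraries were from cells that had been exposed to vitamin K1 (VK1, 10 μM) for 1 h beforehand. Libraries without erastin were not analysed here, so each comparison is of VK1 on top of erastin and none is of erastin itself. The study asked how vitamin K changes gene expression in RPE cells damaged by ferroptosis. All values are FPKM, that is fragments counted per kilobase of a gene's transcripts and scaled by all fragments mapped in that library, which allow levels of genes of different length to be set side by side. The labels do not say whether the libraries of a group came from separate cultures, so p-values measure the spread between these libraries, which may be technical.

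Integrins are receptors made of an alpha and a beta subunit that span the plasma membrane. The alpha subunit largely sets whether the receptor holds fibronectin and other ligands with an RGD sequence, collagen, or laminin, while the beta tail recruits talin, kindlin and the ILK-PINCH-parvin complex and through them actin. DDR1 and DDR2 are receptor tyrosine kinases that bind collagen without being integrins. RPE cells in the eye rest on Bruch's membrane, which holds laminin, collagen and fibronectin, and hold on to it through such receptors.

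Library sums were 228452 to 237958 FPKM with 16% to 18.5% from mitochondrially encoded genes, and libraries of a group correlated at 0.984 to 0.993. In Era+VK replicates 2 and 3, 15 erythroid marker genes summed to 245 and 239 FPKM, beside 5.69 to 6.70 FPKM in the other 4 libraries. Of the 15, 1 (EPOR) was at 1 FPKM or more in every library and 3 were at 0.3 FPKM or less throughout. Among these 3 was HBB, the adult beta-globin gene, at 0.04 FPKM or less. In Era+VK replicates 2 and 3 the highest of the 15 were other globin genes. These were HBG2 (101.77 and 100.25 FPKM), HBE1 (49.14 and 46.34 FPKM) and HBG1 (28.18 and 27.66 FPKM). The alpha-globin genes HBA1 (21.27 and 18.45 FPKM) and HBA2 (24.1 and 23.95 FPKM) were also present there, as were HBZ (8.71 and 9.92 FPKM) and GATA1 (2.35 and 2.27 FPKM). In these 2 libraries, of the integrin subunits of blood cells, ITGA2B was at 0.08 and 0.10 FPKM, ITGB2 at 0.17 and 0.16 FPKM and ITGAL, ITGAM, ITGAX and ITGB7 at 0.08 FPKM or less. ITGAE was highest in them, at 1.06 and 0.87 FPKM beside 0.64 to 0.82 FPKM in the other 4 libraries, and the part of erythroid RNA in that was not tested. ITGA4, which blood cells also carry, was at 2.92 and 3.0 FPKM in them and at 2.54 to 3.08 FPKM in the other 4. As for the label of the cells, the epithelial keratins KRT8 (171 to 209 FPKM) and KRT18 (222 to 246 FPKM) and the RPE transcription factors MITF (15.5 to 18.6 FPKM) and OTX2 (27.5 to 31.4 FPKM) were present, whereas RPE65, RLBP1 and TYR, genes of the visual cycle and of pigment, were at 0.29 FPKM or less in every library. RDH5, also of the visual cycle, was at 1.4 to 2.48 FPKM, PMEL, a pigment granule gene, at 1.07 to 1.42 FPKM and SERPINF1, which encodes a secreted RPE factor, at 0.40 to 0.91 FPKM. BEST1, an RPE chloride channel gene, was uneven within both groups, at 0.65 to 56.98 FPKM in Era and 0.60 to 36.5 in Era+VK.

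Of the 24 integrin subunits listed, 12 averaged 1 FPKM or more across the libraries. Among alpha subunits these were, from high to low, ITGA3, ITGA5, ITGAV, ITGA6, ITGA7, ITGA1 and ITGA4, and among beta subunits ITGB1, ITGB5, ITGB4, ITGB8 and ITGB3. The order was the same from ITGA3 to ITGA7 in every library, with no overlap between neighbours, whereas ITGA1 (3.0 to 4.54 FPKM) and ITGA4 (2.54 to 3.08 FPKM) overlapped. Neighbouring beta subunits in this order did not overlap either. The other 12 subunits were at 1.06 FPKM or less in every library. At the mRNA level the cells therefore held a laminin-binding alpha subunit far above the rest, the classical fibronectin receptor pair ITGA5 and ITGB1, the vitronectin receptor pair ITGAV and ITGB5, and little of any collagen-binding integrin.

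**Figure D1:**
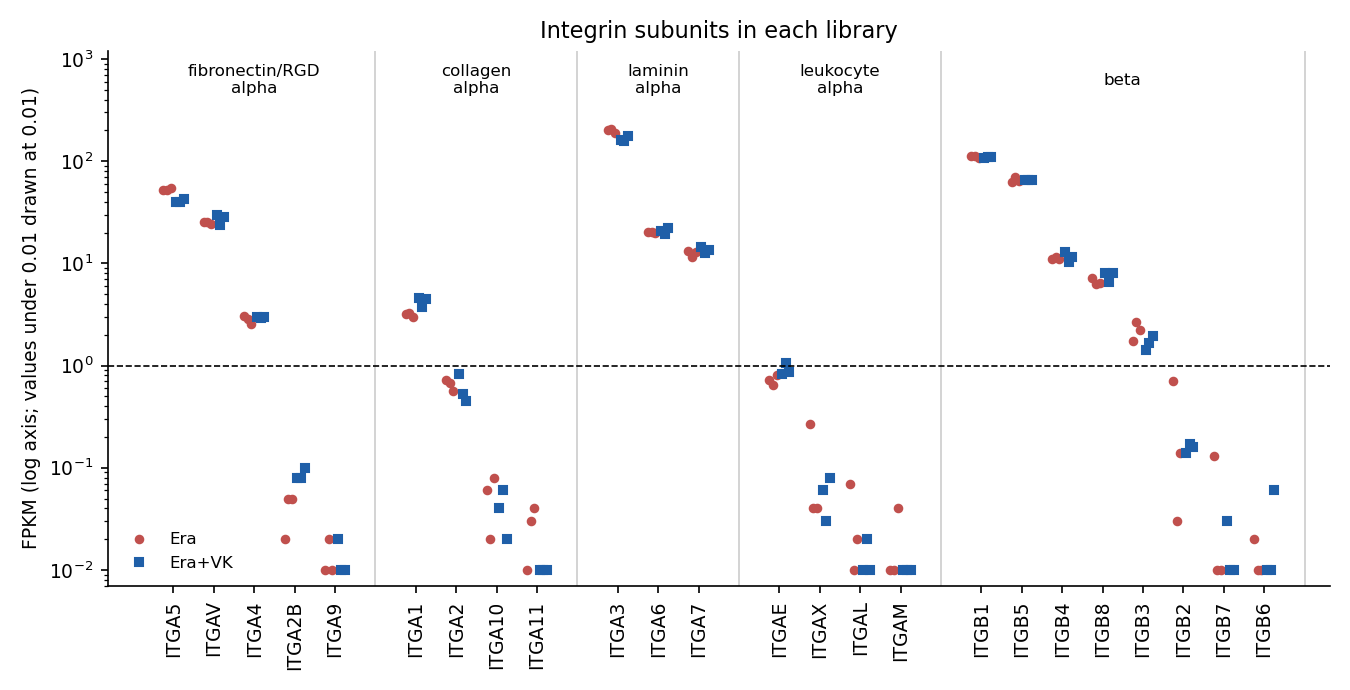
FPKM of the 24 listed integrin subunits in each of the 6 libraries on a log axis, by ligand class, with 3 points for Era (circles) and 3 for Era+VK (squares). The dashed line is 1 FPKM, the minimum mean for a test, and the means of 12 subunits lie above it.

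Genes averaging 1 FPKM or more were compared between Era+VK and Era with limma on log2(FPKM + 1), with Benjamini-Hochberg adjustment over all 11981 genes tested and a threshold of 0.05. Of the members, 25 were tested and 12 listed members were below the minimum. ITGA5 was lower in Era+VK (adjusted p = 0.0191 in limma), and it was the only member past the threshold, 1 of 25, where 0.618% of all genes tested passed in either direction and 0.484% passed as lower. The median log2 fold change of the 25 was -0.03, beside 0.03 over all genes tested, with 15 members lower and 10 higher by their estimate (36.7% and 63.3% of all genes). Groups that do not overlap, with each Era+VK library beyond each Era library, were seen for 7 of 25 members and for 22.1% of all genes. Of these, 5 were lower (ITGA5, ITGA3, DDR2, VCL and FERMT2; 7.04% of all genes) and 2 were higher (ITGA1 and DDR1; 15.1% of all genes). An adjusted p under 0.1 was reached by 5 of 25 members (ITGA5, ITGA3, ITGA1, DDR1 and DDR2), against 2.02% of all genes tested. An exact permutation test of 3 libraries against 3 cannot give a two-sided p below 0.1, which was its value for each of the 7.

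**Figure D2:**
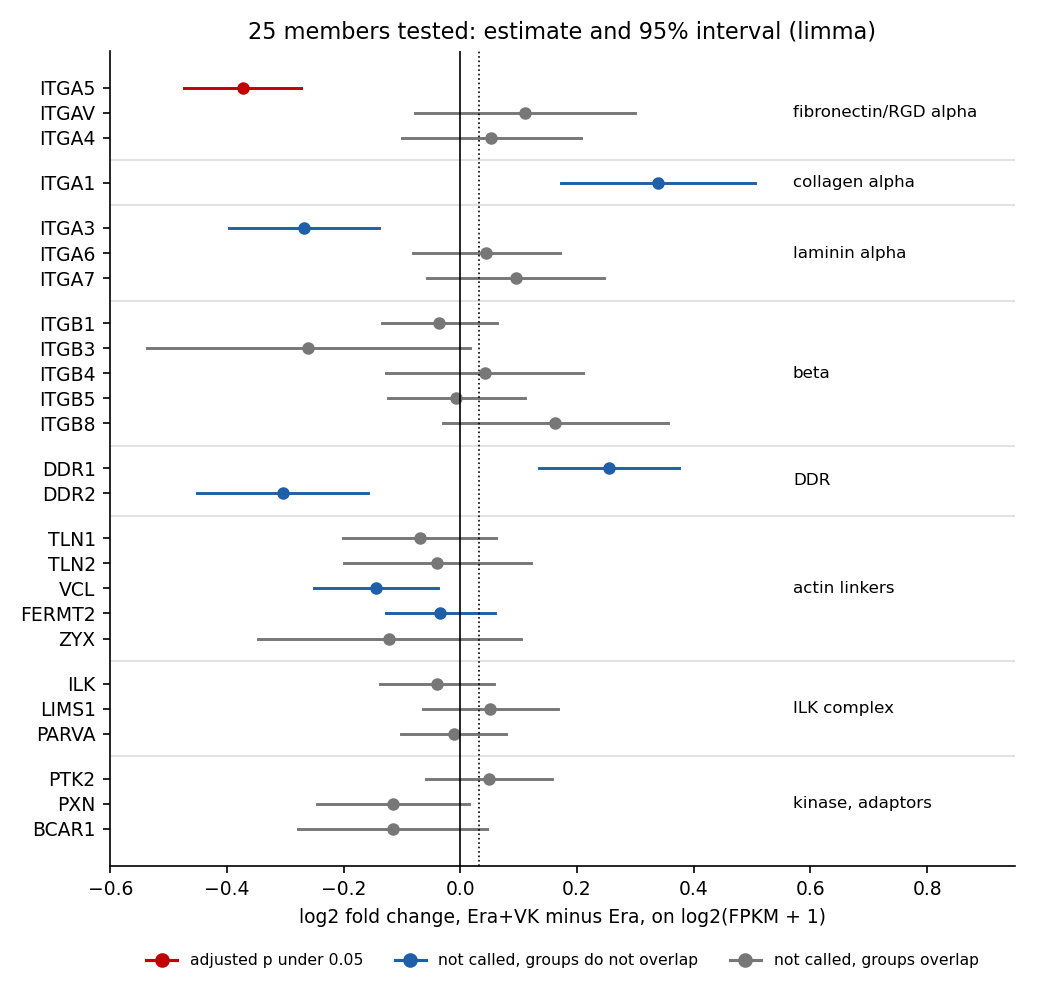
Estimated log2 fold change of Era+VK minus Era on log2(FPKM + 1) with its 95% interval from limma for the 25 members tested, by role, with the solid line at 0 and the dotted line at the median of all genes tested (0.03). ITGA5 is the only member past the adjusted threshold, and ITGA1, ITGA3, DDR1 and DDR2 are the others whose intervals lie farthest from 0.

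ITGA5, the alpha subunit of the classical fibronectin receptor, read 52.1, 52.3 and 54.0 FPKM in the Era libraries and 39.4, 40.1 and 42.2 FPKM in the Era+VK libraries. The groups lay far apart compared with the spread within each, 52.8 ± 1.05 FPKM in Era and 40.6 ± 1.47 in Era+VK (SD, n = 3), so that Era+VK held 0.768 times the Era level. On the log2 scale this was a fall of -0.37 (SE 0.04, 95% interval -0.47 to -0.27). Without any 1 of the Era libraries the fold change kept its size but the adjusted p of limma rose to between 0.0929 and 0.107, with a range of 0.00985 to 0.107 over all alternatives tried. Without Era+VK replicates 2 and 3, the libraries with erythroid transcripts, the log2 fold change was -0.41, as large as with them. That fit leaves 1 Era+VK library, which is assumed to vary like the 3 Era libraries, and gave an adjusted p of 0.0589. In it 0 members passed in limma, with 8 of 25 members and 15.6% of all genes at an unadjusted p under 0.05, beside 6 of 25 and 15.8% with all libraries. ITGA3, DDR2, ITGA1 and DDR1 kept their direction there, at log2 fold changes of -0.29, -0.27, 0.42 and 0.31. In bulk RNA a lower value from fewer expressing cells and from less RNA per cell cannot be told apart. ITGA5 lies on the minus strand of chromosome 12 (54395261 to 54419460, GRCh38, GENCODE 29). Since it carried the only call, the bases just before its transcription start are shown, from RefSeq on GRCh38.p14, minus strand, chr12:54419461-54419516, which ends at the base before the GENCODE start. The capitals mark a GC box, GGGCGG read on the other strand.
ITGA5 upstream: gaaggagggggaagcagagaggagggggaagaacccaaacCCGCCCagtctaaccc
RefSeq places the start 194 bases further into the gene. Windows of 250 bases before the RefSeq start were searched on both strands for an AP-1 site (TGANTCA), a GC box (GGGCGG) and the amino acid response element core (TGATGNAAN), each on its own and regardless of overlap. A GC box was in 14 of the 28 members that had a window, ITGA8 among the 14, and in 42.6% of all 35116 windows. For each member only the window nearest a GENCODE start was kept. The 35116 windows were not reduced to 1 for each gene, so the shares are not of the same kind. Neither the AP-1 letters (6.57% of all windows) nor the response element core (3.13%) was in the window of any of the 28. A match or its absence is a description of these letters and not of a factor's binding.

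The other fibronectin and RGD-binding alpha subunits did not pass the test. ITGAV, which pairs with several beta subunits to bind vitronectin, fibronectin and latent TGF-β, read 25.5, 25.6 and 24.04 FPKM in Era and 29.7, 23.7 and 28.3 in Era+VK. The groups overlapped, and the log2 fold change was 0.11 (95% interval -0.08 to 0.30, adjusted p = 0.541 in limma). ITGA4, a receptor for fibronectin and VCAM1, was at 2.54 to 3.08 FPKM in Era and 2.92 to 3.0 in Era+VK (log2 fold change 0.05). ITGA9 was at 0.02 FPKM or less and ITGA2B, the platelet fibrinogen receptor subunit, at 0.10 FPKM or less in every library. The ratio of ITGA5 to ITGAV FPKM was 2.04, 2.04 and 2.25 in Era and 1.33, 1.69 and 1.49 in Era+VK, so the groups did not overlap; this ratio and those below were chosen after the values were seen and were not tested. Relative to ITGB1, the beta partner of ITGA5, ITGA5 was at 0.460, 0.463 and 0.5002 in Era and at 0.372, 0.362 and 0.386 in Era+VK. Summed over the class, the fibronectin and RGD-binding alpha subunits gave 80.7 ± 0.0808 FPKM in Era and 70.9 ± 3.64 in Era+VK (SD, n = 3) without overlap. ITGA5 and ITGAV made up nearly all of that sum.

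Laminin-binding subunits were the most abundant class. ITGA3, which with ITGB1 forms a laminin receptor of epithelial cells, read 200.1, 204 and 190.1 FPKM in Era and 161, 157 and 175 in Era+VK. Every Era+VK library was below every Era library, but the gene did not pass the threshold (log2 fold change -0.27, SE 0.06, adjusted p = 0.0877 in limma). ITGA6, whose partners are ITGB1 and the hemidesmosomal ITGB4, read 20.0, 20.2 and 19.9 FPKM in Era and 20.9, 19.3 and 22.1 in Era+VK, with overlap and a log2 fold change of 0.04 (95% interval -0.08 to 0.17). ITGA7, best known as the laminin receptor of muscle, read 13.1, 11.6 and 13.0 FPKM in Era and 14.3, 12.6 and 13.6 in Era+VK (log2 fold change 0.10, 95% interval -0.06 to 0.25), again with overlap. The lower class sum in Era+VK, 199 ± 10.9 FPKM beside 231 ± 6.94 FPKM in Era (SD, n = 3, no overlap), lay in ITGA3. The ratio of ITGA3 to ITGA6 was 9.53 to 10.1 in Era and 7.72 to 8.17 in Era+VK. As a share of all alpha subunit FPKM, ITGA3 was 62.6% ± 0.945 in Era and 59.7% ± 0.912 in Era+VK (SD, n = 3), again without overlap.

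Collagen-binding alpha subunits were the smallest matrix-binding class, and their sum was higher rather than lower in Era+VK. ITGA1, which binds collagen IV and other collagens as a partner of ITGB1, read 3.18, 3.28 and 3.0 FPKM in Era and 4.54, 3.77 and 4.48 in Era+VK. The groups did not overlap, and the log2 fold change of 0.34 (95% interval 0.17 to 0.51) did not pass (adjusted p = 0.0923 in limma). It passed only without Era+VK replicate 2, its lowest Era+VK library (log2 fold change 0.41, adjusted p = 0.0484). ITGA1 shares 475 exon bases, 2.56% of its own, with PELO on the same strand of chromosome 5. PELO, an mRNA surveillance factor, was at 11.6 to 13.7 FPKM in Era and 12.8 to 13.6 in Era+VK, and its part in the ITGA1 values was not tested. ITGA2, the subunit that prefers fibrillar collagen, read 0.72, 0.67 and 0.56 FPKM in Era and 0.82, 0.53 and 0.45 in Era+VK, under the minimum for a test. ITGA10 was at 0.08 FPKM or less and ITGA11 at 0.04 FPKM or less. The class summed to 3.96, 4.0 and 3.68 FPKM in Era and 5.41, 4.37 and 4.95 in Era+VK. That is 1.23% ± 0.028 of all alpha subunit FPKM in Era and 1.78% ± 0.161 in Era+VK (SD, n = 3), without overlap, while the shares of the fibronectin class (25.1% to 26.2%) and the laminin class (71.5% to 73.4%) overlapped between groups. All alpha subunits together gave 319, 322 and 308 FPKM in Era and 275, 261 and 290 in Era+VK.

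**Figure D3:**
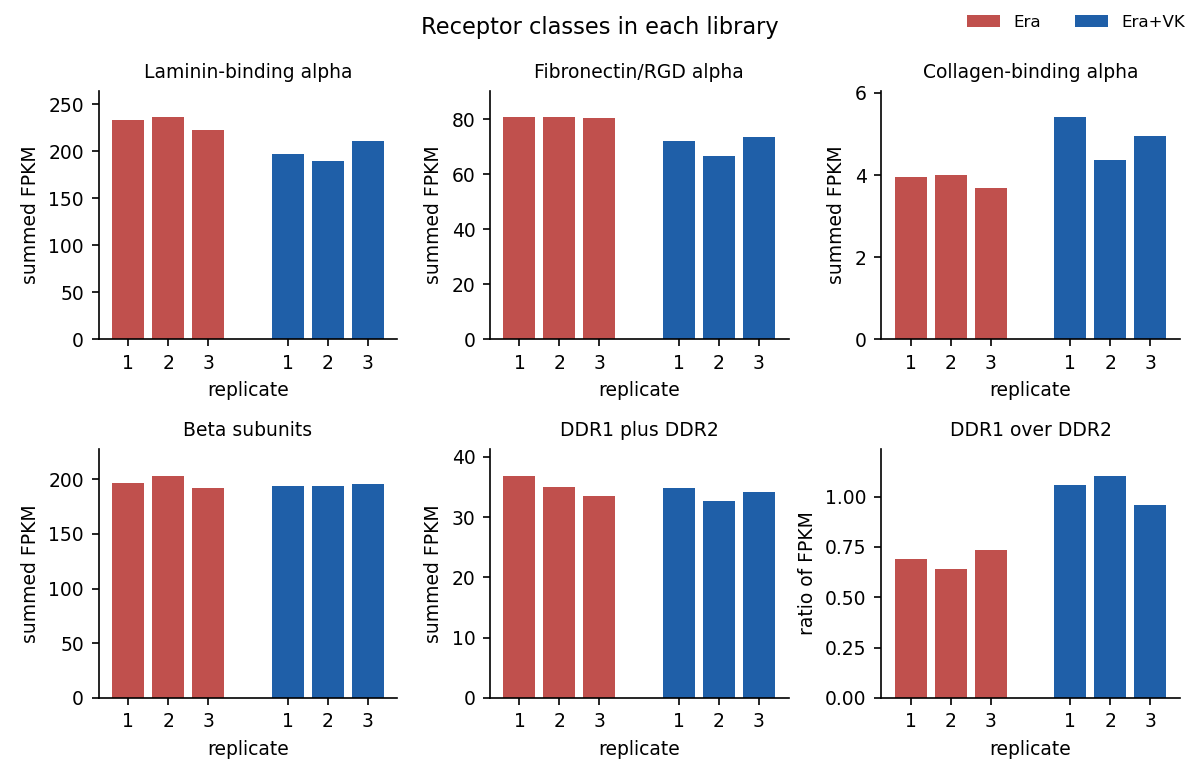
Summed FPKM of the laminin-binding, fibronectin/RGD-binding and collagen-binding alpha subunits, of the beta subunits and of DDR1 plus DDR2, and the DDR1 to DDR2 ratio, one bar for each library. The laminin and fibronectin sums are lower and the collagen sum and DDR1 to DDR2 ratio higher in every Era+VK library, while the beta sum (192 to 203 FPKM) and the DDR sum (32.7 to 36.9 FPKM) overlap.

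The alpha subunits of leukocyte integrins were at or near 0. ITGAL was at 0.07 FPKM or less, ITGAM at 0.04 FPKM or less and ITGAX at 0.27 FPKM or less in every library. ITGAE, which binds E-cadherin in lymphocytes of epithelia, was the exception, at 0.72, 0.64 and 0.80 FPKM in Era and 0.82, 1.06 and 0.87 in Era+VK. These groups did not overlap, but the gene was under the minimum for a test. ITGAE also shares 427 exon bases, 6.41% of its own, with HASPIN on the opposite strand. HASPIN averaged 2.43 FPKM, and its part in the ITGAE values was not tested.

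No beta subunit passed the test in limma, and 0 of the 5 tested had an unadjusted p under 0.05, beside 15.8% of all genes tested. ITGB1, the common partner of most matrix-binding alpha subunits, read 113, 113 and 108 FPKM in Era and 106, 111 and 109 in Era+VK, with overlap. Its log2 fold change was -0.04 with a narrow 95% interval of -0.13 to 0.06 (adjusted p = 0.724 in limma), an interval that does not reach the estimate for ITGA5. ITGB5, the vitronectin receptor partner of ITGAV that RPE cells use in taking up photoreceptor debris, read 62.7, 70.1 and 64.4 FPKM in Era and 65.9, 65.0 and 65.3 in Era+VK (log2 fold change -0.01, 95% interval -0.12 to 0.11). ITGB8, which with ITGAV activates latent TGF-β, was at 7.18, 6.32 and 6.39 FPKM in Era and 8.11, 6.58 and 7.99 in Era+VK (log2 fold change 0.16, adjusted p = 0.386). ITGB4, the hemidesmosomal partner of ITGA6, was at 10.9 to 11.4 FPKM in Era and 10.3 to 12.8 in Era+VK. ITGB3 was the lowest beta subunit tested, at 1.73, 2.65 and 2.25 FPKM in Era and 1.41, 1.67 and 1.93 in Era+VK. Its groups overlapped and its interval was wide (log2 fold change -0.26, 95% interval -0.54 to 0.02, adjusted p = 0.342). ITGB6 was at 0.06 FPKM or less, ITGB7 at 0.13 FPKM or less, and ITGB2, the common beta subunit of leukocytes, at 0.03 to 0.17 FPKM except for 0.70 FPKM in Era replicate 1. ITGB1 made up 54.5% to 57.6% of all beta subunit FPKM. The beta subunits summed to 197 ± 5.62 FPKM in Era and 195 ± 1.06 in Era+VK (SD, n = 3), and these sums overlapped.

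The discoidin domain receptors differed between groups in opposite directions, and neither passed the threshold. DDR1, the form typical of epithelia, read 15.1, 13.7 and 14.2 FPKM in Era and 17.9, 17.1 and 16.7 in Era+VK (log2 fold change 0.26, SE 0.05, adjusted p = 0.0839 in limma). DDR2, the form typical of mesenchymal cells and a receptor for fibrillar collagen, read 21.8, 21.3 and 19.3 FPKM in Era and 17.0, 15.5 and 17.4 in Era+VK (log2 fold change -0.30, SE 0.06, adjusted p = 0.0879 in limma). In neither gene did the groups overlap. The ratio of DDR1 to DDR2 was 0.691, 0.642 and 0.734 in Era and 1.06, 1.10 and 0.958 in Era+VK, so DDR2 was the higher of the pair in every Era library and DDR1 the higher in 2 of 3 Era+VK libraries. Their sum, 35.1 ± 1.73 FPKM in Era and 33.9 ± 1.15 in Era+VK (SD, n = 3), overlapped. DDR1 lies on chromosome 6 (30876421 to 30900156) and DDR2 on chromosome 1 (162631373 to 162787400), both on the plus strand of GRCh38.

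**Figure D4:**
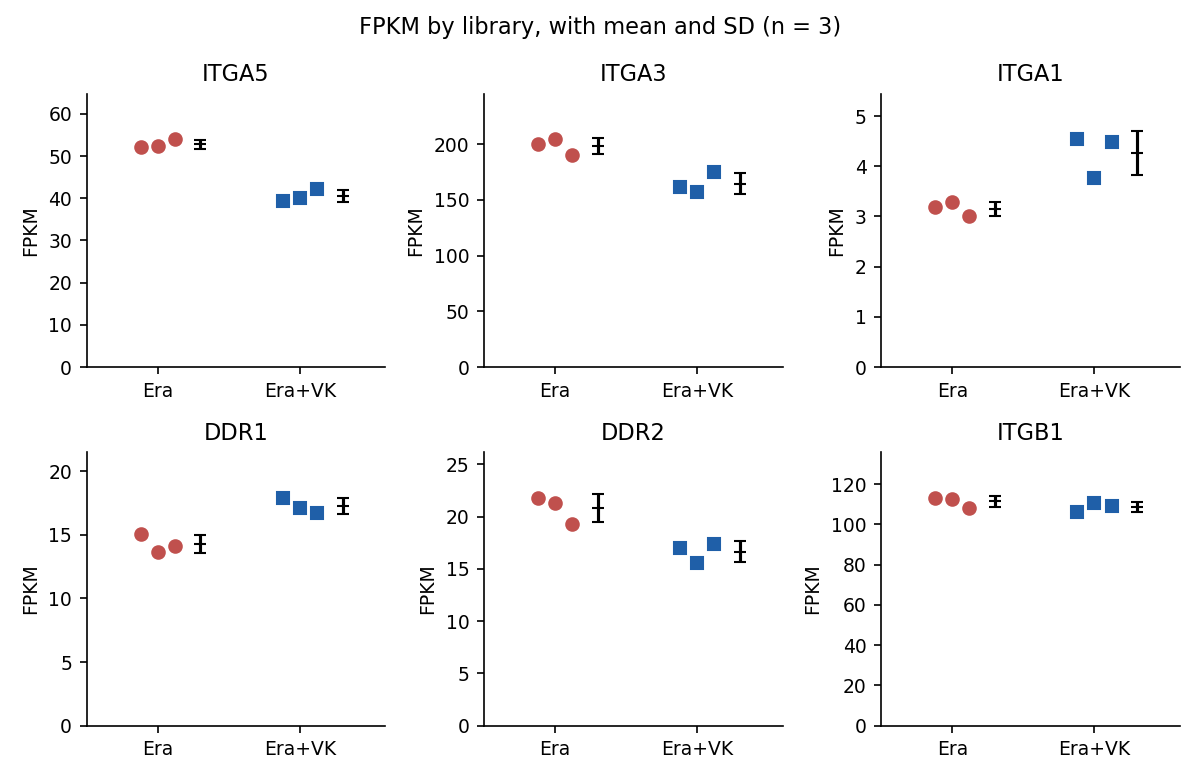
FPKM in each library, from 0, for ITGA5, ITGA3, ITGA1, DDR1, DDR2 and ITGB1, with the mean and SD of each group of 3 in black. The groups lie apart in the first 5 genes, and those of ITGB1 overlap.

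On the cytoplasmic side of the adhesion, all 11 linkers, kinases and adaptors were tested. Of these, 9 were lower and 2 higher by their estimate, while 36.7% of all genes tested were lower by their estimate. None of the 11 passed in limma, and 1 (VCL) had an unadjusted p under 0.05, beside 15.8% of all genes tested. Their median log2 fold change was -0.04, beside 0.03 over all genes tested. Talin, which switches integrins on, was mostly TLN1, at 104, 107 and 99.8 FPKM in Era and 103, 92.0 and 102 in Era+VK (log2 fold change -0.07, 95% interval -0.20 to 0.06), and TLN2 was at 6.04 to 7.32 FPKM over all 6 libraries. VCL, the vinculin gene, which reinforces the talin to actin link, read 43.6, 46.8 and 42.9 FPKM in Era and 40.2, 39.6 and 40.5 in Era+VK. These groups did not overlap, and the log2 fold change of -0.14 (95% interval -0.25 to -0.04) had an adjusted p of 0.200 in limma. FERMT2, the kindlin of most adherent cells, also had groups that did not overlap, 11.4 to 11.7 FPKM in Era and 11.2 to 11.3 in Era+VK, but by a small amount (log2 fold change -0.03, 95% interval -0.13 to 0.06). ZYX, the zyxin gene, whose product gathers on stretched actin, was spread widely within each group, at 69.4 to 84.1 FPKM in Era and 60.3 to 73.7 in Era+VK (log2 fold change -0.12).

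The genes of the ILK complex overlapped between groups. ILK, its scaffold, was at 34.5 to 35.7 FPKM in Era and 32.7 to 34.7 in Era+VK (log2 fold change -0.04, 95% interval -0.14 to 0.06). PARVA, the parvin that joins ILK to actin, was at 19.1 to 19.7 FPKM over all 6 libraries, with a log2 fold change of -0.01 (95% interval -0.10 to 0.08), the narrowest interval of the 25 members tested. LIMS1, which encodes PINCH and has close copies in the genome with which reads could be shared, was at 4.85 to 5.45 FPKM. Of the signalling members, PTK2, the focal adhesion kinase gene, was at 10.02 to 10.3 FPKM in Era and 10.1 to 11.0 in Era+VK (log2 fold change 0.05). PXN, the paxillin gene, read 44.9, 41.9 and 44.2 FPKM in Era and 42.0, 37.4 and 41.3 in Era+VK, with overlap (log2 fold change -0.12, adjusted p = 0.366 in limma). BCAR1, which encodes the adaptor p130Cas, was at 16.7 to 18.7 FPKM in Era and 15.1 to 17.4 in Era+VK (log2 fold change -0.12). VCL and ILK share exon bases with genes on the opposite strand, AP3M1 (11.1% of VCL exon bases) and TAF10 (68.1% of ILK exon bases), and the strand setting of the counting is not given in the sources used here.

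Genes around the receptors were taken from 6 lists, and none of their genes passed the threshold. The counts below at an unadjusted p under 0.05 stand beside 15.8% of all genes tested. Among fibronectin, RGD and matricellular ligands, 11 of 18 genes were tested, 4 with an unadjusted p under 0.05, and the median log2 fold change was -0.05. TGFBI, an RGD protein that binds collagen and integrins and the most abundant of the list, was at 331 to 342 FPKM in Era and 269.8 to 286 in Era+VK (log2 fold change -0.27, adjusted p = 0.0552 in limma). CCN1 (256 to 291 FPKM) and CCN2 (86.1 to 107.7 FPKM), matricellular ligands, overlapped between groups. THBS1, thrombospondin, did not overlap (60.3 to 63.1 FPKM in Era, 52.3 to 56.9 FPKM in Era+VK, adjusted p = 0.139). FN1, the fibronectin gene itself, named here for its place as the ITGA5 ligand after its values were seen, was at 38.1, 38.8 and 38.5 FPKM in Era and 35.7, 34.1 and 37.2 in Era+VK (log2 fold change -0.11, adjusted p = 0.304).

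Collagen chains (10 of 17 genes tested, median 0.05, 2 with an unadjusted p under 0.05) and laminin and basement membrane genes (10 of 15 tested, median 0.01, 4 with an unadjusted p under 0.05) were each split between higher and lower estimates, 6 against 4 and 5 against 5. The 4 most abundant collagen chains, COL8A1 (90.1 to 106 FPKM), COL12A1 (68.5 to 86.5 FPKM), COL11A1 (59.6 to 70.6 FPKM) and COL18A1 (52.7 to 58.3 FPKM), each overlapped between groups. Of the basement membrane genes, LAMB2 was at 150.4 to 164 FPKM in Era and 170.3 to 181 in Era+VK without overlap (log2 fold change 0.13, adjusted p = 0.285), while AGRN, LAMC1 and HSPG2 overlapped. LAMA3, a chain of the laminin that ITGA3 binds in epithelia, was the nearest to the threshold, at 4.0, 3.99 and 3.61 FPKM in Era and 5.64, 4.69 and 5.40 in Era+VK (log2 fold change 0.36, adjusted p = 0.0826). It was picked out after its values were seen.

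Of 38 other focal adhesion genes 30 were tested, with a median log2 fold change of -0.03, and 11 of the 30 had an unadjusted p under 0.05, beside 15.8% of all genes tested. The most abundant were FLNA, a filamin (421 to 432 FPKM in Era and 356 to 413 in Era+VK, adjusted p = 0.385), and ACTN4, an alpha-actinin (238 to 250.1 FPKM and 221 to 237 FPKM, adjusted p = 0.316), both without overlap. KANK2, a talin binder, was higher without overlap (adjusted p = 0.204), and TES overlapped. The nearest to the threshold was ACTN1, named after its values were seen, at 35.1, 37.8 and 38.5 FPKM in Era and 30.5, 29.7 and 30.5 in Era+VK (log2 fold change -0.29, adjusted p = 0.0519 in limma). All 13 membrane partners of integrins, such as tetraspanins and syndecans, were tested, with a median of 0.00 and 5 with an unadjusted p under 0.05, and the 4 most abundant, BSG, CD63, CD151 and SDC4, overlapped. Among actin genes and targets of the transcription factor SRF, 15 of 16 were tested, with a median of -0.10. An unadjusted p under 0.05 was reached by 8 (15.8% of all genes tested). By their estimate 13 were lower (36.7% of all genes tested), 8 of them without overlap (7.04%). ACTB (620 to 658 FPKM in Era, 574 to 578 FPKM in Era+VK, adjusted p = 0.240) and ACTG1 (928 to 1025 FPKM and 840.3 to 897 FPKM, adjusted p = 0.246) were in that group, whereas MYH9 and TAGLN2 overlapped.

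**Figure D5:**
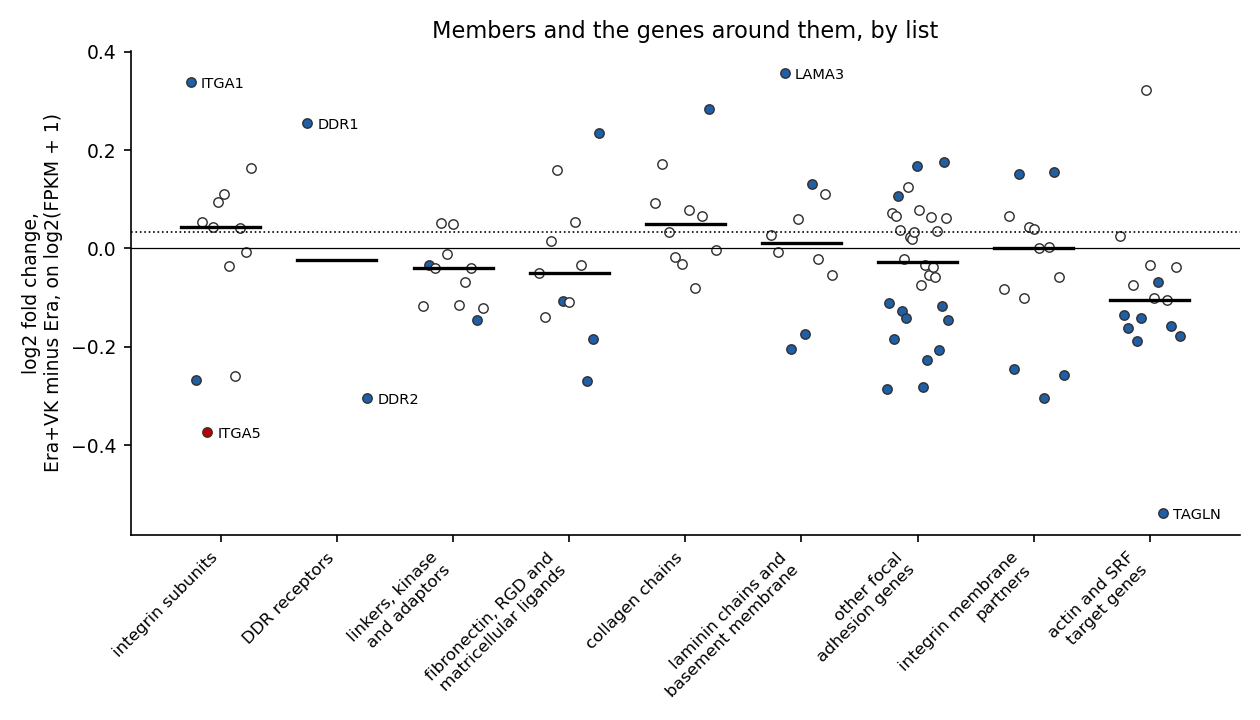
Log2 fold change of Era+VK minus Era on log2(FPKM + 1) for each tested member and each tested gene of the 6 lists around them, with the median of each list as a bar and the dotted line at the median of all genes tested (0.03). ITGA5 (red) is the only gene drawn that passed the adjusted threshold, filled blue points had groups that do not overlap, and open points overlapped.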

How the data were processed

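RNA of ARPE-19 cells was sequenced as paired-end reads on an Illumina NovaSeq instrument. The authors deposited FPKM values with 2 decimals for each gene and library. The submitters' processing notes name cutadapt, HISAT2, StringTie 2.1.6 and the mouse build mm10, whereas the deposited identifiers are human Ensembl genes, so the build used is uncertain and positions are from GENCODE 29 (37 of 37 listed members matched). The labels number the cell line upwards from ARPE-19, and all libraries were taken as ARPE-19. FPKM carry no read counts: depth is unknown, neither counting error nor detection limits can be given, and each value is relative to all fragments of its library.

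Genes averaging 1 FPKM or more were tested on log2(FPKM + 1), which understates changes of low genes, with limma 3.58.1 (trend, two-sided) in R 4.3.3, Era+VK against Era, without a replicate term and with Benjamini-Hochberg adjustment over all genes tested. The procedure was also run on simulated libraries with known changes and noise drawn independently for each gene and library. Since no simulated library differed as a whole, that run cannot show how calls depend on single libraries. Exact permutation tests used scipy 1.17.1. Alternatives were a pseudocount of 0.1, other filters on low values, quantile normalization, rescaling without mitochondrially encoded genes, robust empirical Bayes, the replicate number as a block, and libraries left out. The members and lists were chosen with earlier results of these data known. All members are named. Of the lists around them, genes past the threshold were to be named, and otherwise the 4 most abundant, with exceptions marked. Gene Ontology terms came with the deposited tables.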

Additional observations from a re-analysis of the deposited data

How the results depend on the processing

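Of 350 values of single members under the 14 alternatives, 336 kept their direction and side of the threshold. ITGA5 was lower in all 14 (log2 fold change -0.41 to -0.35) and passed in 9. The other filters, the replicate block and robust empirical Bayes cannot change a log2 fold change (-0.3731 for ITGA5 in each). In those fits only the side of the threshold could move, for ITGA5 and for every other member. Members past the threshold numbered 1 as reported, 0 without a filter on low genes (ITGA5 adjusted p = 0.074 in limma, 6 members at an unadjusted p under 0.05), 0 without Era+VK replicates 2 and 3 together (1 Era+VK library, its spread taken from the 3 Era libraries), and 0 to 2 with any 1 library left out: 0 without each Era library in turn (5 to 7 members at an unadjusted p under 0.05) and 2 without Era+VK replicate 2, when ITGA1 passed. Over all genes, 74 passed as reported, 1 without a filter, 122 with at least 1 FPKM in every library, 112 after quantile normalization, 35 with the same 1 Era+VK library, and 2 to 70 with any 1 library left out. Robust empirical Bayes gave 107. Beside the member counts at an unadjusted p under 0.05, the share of all genes was 8.8% without a filter. It was 11.3% to 12.8% without each Era library in turn. The causes of these differences were not tested. Members without overlap numbered 7 as reported, 8 after quantile normalization and 6 after rescaling without mitochondrially encoded genes. With any 1 library left out they numbered 8 to 14, where fewer libraries make overlap less likely. The share of all genes without overlap was taken only as reported (22.1%), so these other counts have no such share beside them. Directions reversed only in members near 0. With any 1 library left out, the log2 fold change ran from -0.0026 to 0.0998 for ITGA4, from -0.0293 to 0.114 for ITGB4, from -0.0396 to 0.0399 for ITGB5 and from -0.0845 to 0.0138 for TLN2. ITGB5 was also at 0.0049 after quantile normalization and at 0.0040 without Era+VK replicates 2 and 3 together, and TLN2 at 0.0348 in the latter. The number of integrin subunits called expressed was 14 at 0.5 FPKM and 9 at 5 FPKM, and the 3 alpha class sums and their total kept their direction after rescaling and with libraries left out, the alternatives run for them.

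Same-numbered libraries correlated in their deviations from the group means at 0.07, 0.10 and 0.02, and the other pairings at -0.11 to 0.04. Era replicates 1 and 2 correlated best with their same-numbered library, and Era replicate 3 with Era+VK replicate 1 (0.04). These small values do not settle whether the replicate numbers are pairs, and they were not taken as pairs. With the replicate number as a block, 42 genes passed, and among the members ITGA5 (adjusted p = 0.0445 in limma), 1 in all. In that fit 9 members and 14.7% of all genes had an unadjusted p under 0.05, beside 6 and 15.8% without the block.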

Other observations

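Gene Ontology terms that came with the deposited tables give a wider view of the same ligand classes. Of 28 genes annotated to fibronectin binding, 18 were tested, 15 were lower by their estimate, and 2 passed in limma: IGFBP5 (10.8, 10.7 and 13.1 FPKM in Era, 7.97, 6.28 and 7.16 in Era+VK, adjusted p = 0.045) and IGFBP3 (48.0, 44.9 and 55.3 FPKM in Era, 35.0, 34.02 and 33.7 in Era+VK, adjusted p = 0.0331). Both encode secreted proteins that bind insulin-like growth factors. The median log2 fold change of the term was -0.14, and 8 of the 18 had an unadjusted p under 0.05. Groups that do not overlap were seen for 8 of the 18, each lower in Era+VK. Of all genes tested, 0.484% passed as lower and 36.7% were lower by their estimate. An unadjusted p under 0.05 was reached by 15.8% of them, and 7.04% were lower without overlap. Collagen binding (64 genes, 35 tested, median 0.01, 16 at an unadjusted p under 0.05) and laminin binding (22 genes, 15 tested, median -0.05, 5 at an unadjusted p under 0.05) had 0 genes past the threshold in limma. Groups that do not overlap were seen for 19 of the 35 collagen binding genes, 8 higher and 11 lower. For laminin binding they were seen for 5 of the 15, 2 higher and 3 lower. Of all genes tested, 22.1% had groups that do not overlap, 15.1% as higher and 7.04% as lower. ITGA5 is not annotated to fibronectin binding in these tables.

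Of 140 integrin binding genes 80 were tested, with a median of 0.01, and 22 had an unadjusted p under 0.05 (15.8% of all genes tested). In limma 1 of the 80 passed as higher and 2 as lower, beside 0.134% and 0.484% of all genes tested. Beside ITGA5, CCN3, a matricellular protein, passed as lower (47.1 ± 0.515 FPKM in Era and 39.1 ± 0.996 in Era+VK, SD, n = 3, adjusted p = 0.0415 in limma). CALR, a chaperone of the endoplasmic reticulum, passed as higher (375 ± 4.99 and 466 ± 15.0 FPKM, adjusted p = 0.0386). Of 418 focal adhesion genes 353 were tested, with a median of 0.01, and 79 had an unadjusted p under 0.05. Of the 353, 2 passed as higher and 3 as lower, to be read beside the same shares of all genes. Beside ITGA5 and CALR, PVR, a nectin-like adhesion receptor, fell by 0.43 on the log2 scale (31.5 FPKM in Era, 23.2 in Era+VK, adjusted p = 0.0125), SNTB1, a syntrophin, fell by 0.41 (2.74 and 1.82 FPKM, adjusted p = 0.0328), and CHP1, a calcium-binding protein, rose by 0.36 (8.07 and 10.6 FPKM, adjusted p = 0.0213).

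Markers of other cell types, whose integrins differ from those of epithelia, were mostly low. Summed over each list, megakaryocyte and platelet markers gave 0.48 to 0.70 FPKM, leukocyte markers 1.77 to 2.55 FPKM and endothelial markers 0.63 to 1.07 FPKM. Smooth muscle and myofibroblast markers, of which 2 of 5 were at 1 FPKM or more in every library (ACTA2 and TAGLN), gave 22.4 to 25.6 FPKM in Era and 20.3 to 20.5 in Era+VK. TAGLN read 10.4, 9.32 and 12.9 FPKM in Era and 7.04, 6.83 and 7.45 in Era+VK (log2 fold change -0.54, adjusted p = 0.0715). ACTA2 overlapped between groups at 12.6 to 13.3 FPKM.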
